A study of Homo sapiens with 9 samples.

Results

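Lysosome genes, the MiT transcription factors and GPNMB were examined as a set of 39 genes among the 38021 genes counted in 786O cells. The genes were chosen by name after GPNMB had been seen to rise in these libraries, to ask whether that rise came with a wider lysosomal program. The values of GPNMB therefore chose the set and are given as a description, with no test. Beside GPNMB, the set held 3 MiT factors, 4 lysosomal membrane proteins, 10 cathepsins and other peptidases, 7 glycosidases and sulfatases, 6 proteins of lipid handling, 1 ion channel and 7 subunits of the proton pump (V-ATPase). All of these 38 genes passed the filter on low counts and were tested in every comparison.

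786O is an established human line of clear cell renal carcinoma. It has no working VHL, and HIF2α therefore builds up even at normal oxygen, a background shared by all 3 groups. The cells carried a lentiviral PLKO.1 short hairpin RNA (shRNA) and were selected as a population in puromycin. The shRNA was a control (shControl), targeted ARNT, the partner of HIF-α subunits (shARNT), or targeted BMAL1, the clock protein that pairs with CLOCK (shBMAL1). There were 3 libraries per group, which the labels call biological replicates. If these did not come from separate cultures, the p-values measure the spread between libraries only. The labels name 1 shRNA per target, so loss of the target and other effects of that shRNA cannot be told apart.

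The lysosome degrades and recycles macromolecules with hydrolases that work at an acid pH set by the V-ATPase. TFEB, TFE3 and MITF are closely related basic helix-loop-helix leucine zipper factors that bind CACGTG-type E-boxes in promoters of lysosomal genes (the CLEAR element). Their activity is set largely by location: when mTORC1 is active at the lysosome, with the help of Rag GTPases and folliculin, it phosphorylates them and keeps them in the cytoplasm, which RNA levels do not show. GPNMB encodes a transmembrane glycoprotein that MiT factors are known to induce, and it is used as a marker of renal tumors in which these factors are active.

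Depth was even, with 33793043 to 35444731 reads per library. Mitochondrial genes took 5.46% to 7.14% of the reads in shControl, 7.59% to 8.74% in shARNT and 8.71% to 9.66% in shBMAL1, and the part of this shift in the results below was not tested. ARNT was lowest in the shARNT libraries (log2 fold change −0.94, SE 0.07, DESeq2 adjusted p 8.83e-35), and BMAL1, named ARNTL in the files, was lowest in the shBMAL1 libraries (−1.23, SE 0.11, adjusted p 2.51e-25). Each was also somewhat lower in the other knockdown, ARNT in shBMAL1 (−0.23, adjusted p 0.0187) and ARNTL in shARNT (−0.26, adjusted p 0.0294). All 6 renal epithelial and 786O markers (PAX8, PAX2, KRT8, KRT18, VIM and CDH2) were expressed in every group, with summed counts of 137592 to 140720 in shControl, 129928 to 132461 in shARNT and 112871 to 125413 in shBMAL1. PAX8 (−0.49) and KRT18 (−0.40) were lower and PAX2 (0.43) higher in shBMAL1, KRT8 was higher in shARNT (0.31), VIM was lower in both (−0.18 and −0.21), and the part of this in the results below was not tested. Of the markers of cells that normally hold much GPNMB, TYROBP and LYZ of macrophages and TYR and SOX10 of melanocytes stood at 0 counts in every one of the 9 libraries, a value that up to 3 counts per library would allow. The rest of the 9 macrophage and osteoclast and 6 melanocyte markers had reads in some library. CSF1R was lower in both knockdowns (−0.61 and −0.88), and PMEL was lower in shARNT (−0.61) and higher in shBMAL1 (0.57). In shBMAL1 FCER1G was called lower and TYRP1 higher (adjusted p 0.0943 and 0.0876).

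GPNMB was the lowest of the 39 genes in control cells and the one that rose most in shARNT. Its normalised read counts were 32.2, 33.0 and 21.2 in shControl, 247, 219 and 229.6 in shARNT, and 16.9, 11.1 and 18.6 in shBMAL1. Every shARNT library thus lay far above every control library, and every shBMAL1 library lay below them. The log2 fold change was 3.01 (SE 0.24) in shARNT, an 8.06-fold rise, and −0.89 (SE 0.47) in shBMAL1. Between the knockdowns GPNMB was lower in shBMAL1 by a log2 value of −3.90 (SE 0.28). The 9 listed macrophage and osteoclast markers had summed counts of 439.7 to 503.4 in shControl, 292.6 to 333.0 in shARNT and 246.9 to 281.0 in shBMAL1. Most of that sum was CSF1R. Osteoclast genes outside this list, given below, went both ways in shARNT. ACP5 (1.90) and ATP6V0D2 (1.13) rose there and CTSK (−0.79) fell. The 6 melanocyte markers summed to 72.4 to 94.0, 45.7 to 61.9 and 111.2 to 144.1 counts in the same order, nearly all of it PMEL.

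Of the MiT factors, MITF rose and TFE3 fell in both knockdowns, and TFEB was not called in either. TFE3, the most abundant of these, had 2774, 2895 and 2926 counts in shControl, 2373, 2407 and 2335 in shARNT, and 2036, 1903 and 2037 in shBMAL1. The 3 groups did not overlap and shBMAL1 was lowest. TFE3 fell by a log2 value of −0.27 (SE 0.06, adjusted p 4.37e-05) in shARNT and −0.53 (SE 0.07, adjusted p 3.13e-12) in shBMAL1, and the direct comparison of shBMAL1 with shARNT gave −0.25 (SE 0.07, adjusted p 0.00214).

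MITF ran in the opposite direction. It had 977, 921 and 966 counts in shControl, 1185, 1024 and 1164 in shARNT, and 1592, 1763 and 1429 in shBMAL1. Again no library of one group overlapped another group. MITF was higher in shBMAL1 (0.74, SE 0.09, adjusted p 8.54e-14) and higher there than in shARNT (0.50, SE 0.10, adjusted p 2.36e-06). Its smaller rise in shARNT (0.24, SE 0.09, adjusted p 0.0196) did not survive the removal of control replicate 2 or of shARNT replicate 1 or 3, with adjusted p values of 0.105, 0.134 and 0.115, nor GC correction with the replicate block (adjusted p 0.102).

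TFEB, the factor most often named as the master regulator of lysosomal genes, had 317, 291 and 280.0 counts in shControl, 299, 303 and 286 in shARNT, and 359, 339 and 324 in shBMAL1. The control and shARNT libraries overlapped, and the shBMAL1 libraries lay just above both. Its log2 fold change was 0.01 (SE 0.13, adjusted p 0.986) in shARNT and 0.20 (SE 0.13, adjusted p 0.27) in shBMAL1. MITF counts were highest and GPNMB counts lowest in shBMAL1, and a link between these RNA levels was not tested. The plot of GPNMB and the MiT factors shows all 9 libraries.

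**Figure D1:**
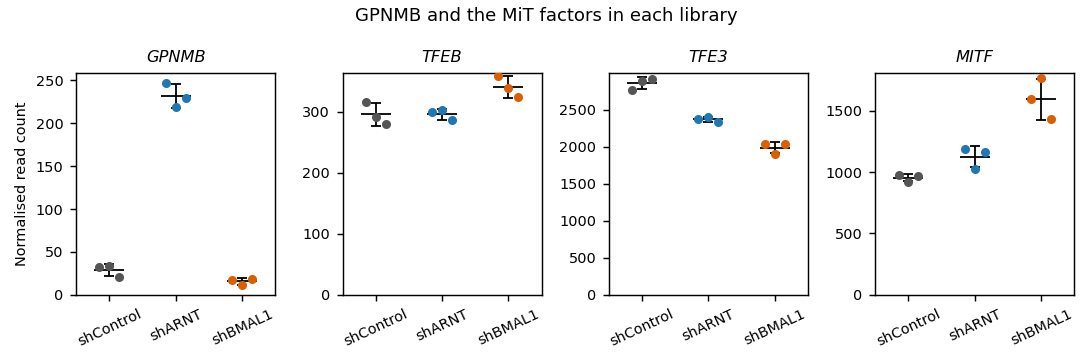
Normalised read counts (y axis, linear, from 0) of GPNMB, TFEB, TFE3 and MITF in the 3 libraries of each group; points are libraries, and the black bar with whiskers is the mean ± SD. GPNMB lies between 219 and 247 in shARNT and at 33.0 or below in the other 6 libraries, TFE3 falls in both knockdowns and MITF rises in both.

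On a scale per length (CPM per kilobase of transcript, where CPM scales each library to the same total), the levels of the 39 genes in shControl ran from 0.310 to 1099, with a median of 51.4. CTSD (1099 ± 47.4, SD, n = 3) and CD63 (1030 ± 64.4) stood highest and overlapped within their spread, followed by PSAP (448 ± 3.65). TFE3 stood at 24.8 ± 0.462, MITF at 5.67 ± 0.236 and TFEB at 3.62 ± 0.270. GPNMB reached 2.53 ± 0.151 in shARNT, still below the 3.68 ± 0.116 of TFEB in the same libraries. Its rise was thus large in fold and small in level.

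The promoter letters that MiT factors recognise are shown for GPNMB and for members with a single listed start and a CACGTG match. CACGTG is also the E-box that the paper gives for BMAL1-CLOCK, so a match does not tell MiT factors from BMAL1-CLOCK. Windows of 250 bases before and 50 after each start were taken from RefSeq (GRCh38.p14), and 26 of the 39 members had one. The printed stretches are the 130 bases just before the start, 5′ to 3′ on the strand of the gene, and the one of LAMP1 holds 1 of the matches in its window. Capitals mark CACGTG, except in GPNMB, where they mark CACATG, the reverse complement of CATGTG, the core of the related M-box. The stretches are chr7:23246645-23246774 (plus strand) for GPNMB, chr13:113297109-113297238 (plus) for LAMP1, chr20:45891205-45891334 (plus) for CTSA, chr11:1763928-1764057 (minus) for CTSD, chr6:31862822-31862951 (minus) for NEU1, chr17:80101451-80101580 (plus) for GAA, chr19:7522494-7522623 (plus) for MCOLN1 and chr16:67481158-67481287 (minus) for ATP6V0D1.
GPNMB: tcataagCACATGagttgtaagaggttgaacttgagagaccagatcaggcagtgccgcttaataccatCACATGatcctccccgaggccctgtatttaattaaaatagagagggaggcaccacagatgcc
LAMP1: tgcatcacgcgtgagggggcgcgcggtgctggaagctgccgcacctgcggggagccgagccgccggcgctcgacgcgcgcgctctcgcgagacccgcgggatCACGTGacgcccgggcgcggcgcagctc
CTSA: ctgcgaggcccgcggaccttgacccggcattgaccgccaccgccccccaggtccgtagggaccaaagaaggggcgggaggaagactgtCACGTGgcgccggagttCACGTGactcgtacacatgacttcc
CTSD: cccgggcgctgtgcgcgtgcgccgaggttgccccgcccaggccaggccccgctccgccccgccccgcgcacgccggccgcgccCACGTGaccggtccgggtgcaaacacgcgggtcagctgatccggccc
NEU1: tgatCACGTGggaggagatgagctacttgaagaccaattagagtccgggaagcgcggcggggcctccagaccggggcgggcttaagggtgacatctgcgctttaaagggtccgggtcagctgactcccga
GAA: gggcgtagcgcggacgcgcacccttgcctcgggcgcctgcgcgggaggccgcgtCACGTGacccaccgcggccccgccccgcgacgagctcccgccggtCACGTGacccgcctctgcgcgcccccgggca
MCOLN1: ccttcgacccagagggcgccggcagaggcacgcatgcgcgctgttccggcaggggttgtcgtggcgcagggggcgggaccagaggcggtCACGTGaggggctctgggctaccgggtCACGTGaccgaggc
ATP6V0D1: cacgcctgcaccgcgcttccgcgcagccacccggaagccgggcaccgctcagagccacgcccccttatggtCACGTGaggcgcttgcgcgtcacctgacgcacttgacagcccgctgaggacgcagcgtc

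CACGTG, read on both strands, occurred in at least 1 window of 8 of the 26 members (30.8%): LAMP1, with 6 matches in its window, CTSA, GAA and MCOLN1 with 2 each, and CTSD, NEU1, CD63 and ATP6V0D1 with 1 each. The share was 8.8% among all 27305 genes of the table and 13.7% among those whose mean reached 500 normalised counts. The longer TCACGTG was found in 7 of the 26 (26.9%), against 4.5% and 8.0%. ACGTG, which lies inside CACGTG and is a hypoxia response core, was found in 12 (46.2%, against 24.9% and 34.5%), and GCGTG, the other such core, in 16 (61.5%, against 40.6% and 60.8%). GPNMB had no CACGTG in its window and 2 CATGTG matches that begin 123 and 62 bases before the start. CATGTG was added to the search after the values were seen, and 23.1% of the members held it, against 13.4% of all genes and 9.4% of those with a mean of at least 500. Of the 8 members with CACGTG, CTSD and NEU1 were higher in both knockdowns, CTSA and MCOLN1 were called higher in shARNT and not called in shBMAL1, ATP6V0D1 and GAA moved in opposite directions in the knockdowns, and LAMP1 and CD63 were called in neither. These matches are letters in a window and were not measured as binding here.

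More of the lysosomal genes were raised than lowered in shARNT, mostly by less than 1.5-fold. Of the 38 genes other than GPNMB, 21 were higher (55.3%) and 8 lower in shARNT, at a DESeq2 adjusted p under 0.1. The background among all 15164 tested genes was 16.5% higher and 19.0% lower, and among tested genes with a mean of at least 500 counts, as 35 of the 38 had, it was 21.0% higher and 25.1% lower. The median log2 fold change of the 38 genes was 0.19, beside 0.003 for all tested genes. With 1 library left out, 19 to 21 were higher and 5 to 7 lower, and the lowest count, 5, came without control replicate 1, where CTSK, GAA and NPC2 were not called. Only 3 of the raised genes and 1 of the lowered genes changed by 1.5-fold or more. In bulk RNA, fewer cells that express a gene and less RNA per cell cannot be told apart.

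In shBMAL1, 14 of the 38 genes were higher (36.8%) and 10 lower (26.3%). The background was 17.4% higher and 19.4% lower among all tested genes, and 19.2% higher and 32.9% lower at a mean of at least 500. The median was 0.12, beside 0.015 for all tested genes. Without shBMAL1 replicate 3 the number higher was 20.

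The direct comparison gave 9 genes higher in shBMAL1 than in shARNT (23.7%) and 13 lower (34.2%), against a background of 17.3% and 18.0% among all tested genes and of 19.9% and 29.9% at a mean of at least 500. The share lower was above that of all tested genes and near that of genes with a mean of at least 500. By role the called genes differed in direction, with 5 of 7 glycosidases higher in shBMAL1 and 5 of 7 pump subunits higher in shARNT, as the plot of fold changes shows. The 39 genes together took 1.04% to 1.07% of all reads in shControl, 1.25% to 1.30% in shARNT and 1.21% to 1.30% in shBMAL1. Both knockdowns thus lay above the control in this share, and CTSD alone went from 0.226% ± 0.00974 to 0.310% ± 0.00409 and 0.311% ± 0.0206 (SD, n = 3).

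**Figure D2:**
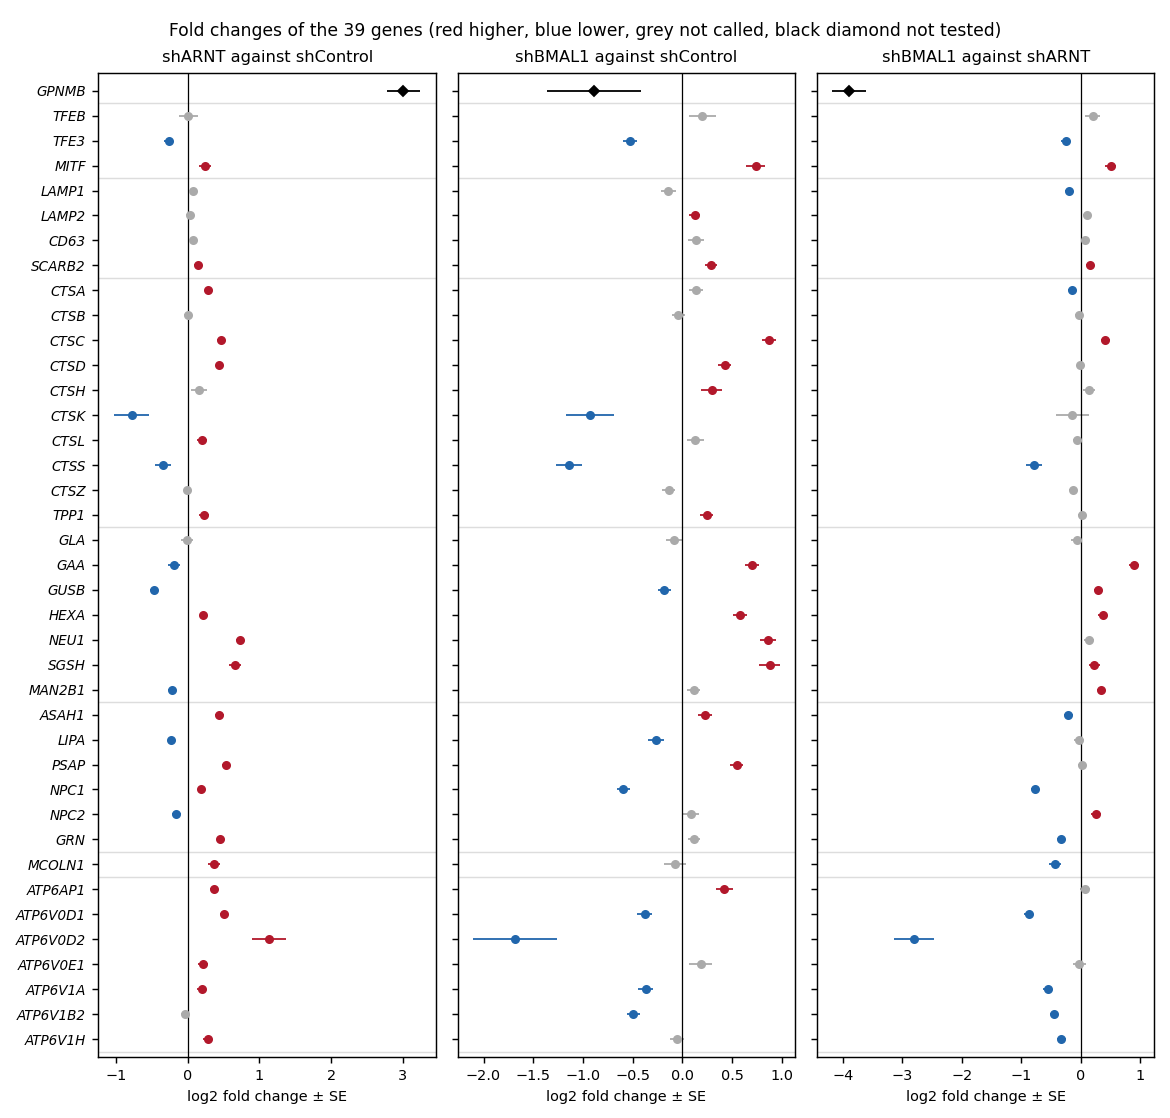
Log2 fold change ± SE (x axis, with a different range in each panel) of the 39 genes in the 3 comparisons, grouped by role from top to bottom; red points were called higher, blue points lower and grey points not at all, and the black diamond of GPNMB was not tested. The 7 V-ATPase subunits at the bottom hold 6 red points in shARNT and 4 blue points in shBMAL1.

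The V-ATPase is the pump that acidifies the lysosome. Of its 7 members, 6 were higher and none lower in shARNT (median log2 fold change 0.28), while 1 was higher and 4 were lower in shBMAL1 (median −0.37). The direct comparison called 5 lower in shBMAL1 and none higher (median −0.45). Of all tested genes with a mean of at least 500, 21.0% were higher in shARNT, 32.9% lower in shBMAL1 and 29.9% lower between the knockdowns. As a share of all reads the 7 genes took 0.0731% ± 0.00337 (SD, n = 3) in shControl, 0.0897% ± 0.00156 in shARNT and 0.0734% ± 0.00551 in shBMAL1, so that in total reads shBMAL1 lay within the spread of the control.

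ATP6V0D2, the form of subunit d that is abundant in osteoclasts and some epithelia, changed most among the 38 genes. Its counts were 70.4, 66.0 and 45.5 in shControl, 121, 142 and 133 in shARNT, and 7.94, 31.2 and 17.6 in shBMAL1. Each shARNT library lay above, and each shBMAL1 library below, all control libraries, the same order as in GPNMB. On the log2 scale ATP6V0D2 changed by 1.13 (SE 0.24, adjusted p 2.35e-05) in shARNT, −1.68 (SE 0.42, adjusted p 0.000423) in shBMAL1 and −2.81 (SE 0.33, adjusted p 1.12e-15) between the knockdowns. These are low counts, and the gene overlaps PSKH2 on the opposite strand, whose reads could not be separated if the counting ignored strand.

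ATP6V0D1, the widely expressed form of the same subunit, is measured far better. It had 4826, 4754 and 4559 counts in shControl, 6726, 6715 and 6515 in shARNT, and 3915, 3610 and 3354 in shBMAL1. The groups were again in the same order and did not overlap. It was higher in shARNT by 0.50 (SE 0.05, adjusted p 7.21e-21), lower in shBMAL1 by −0.38 (SE 0.07, adjusted p 2.14e-06) and lower by −0.88 in shBMAL1 than in shARNT (SE 0.07, adjusted p 1.79e-33).

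ATP6V1A, a catalytic subunit, followed the same order, at 0.19 in shARNT (adjusted p 0.00459), −0.37 in shBMAL1 (adjusted p 4.70e-06) and −0.56 between the knockdowns (adjusted p 2.73e-13). ATP6V1B2, a subunit of the same head, was lower in shBMAL1 (−0.49, adjusted p 6.52e-13) and not called in shARNT (−0.04, adjusted p 0.634). ATP6V1H, a regulatory subunit, was higher in shARNT (0.28, adjusted p 0.000413) and not called in shBMAL1 (−0.06, adjusted p 0.629). For both, the direct comparison was called, at −0.45 and −0.33. ATP6AP1, an accessory subunit, was higher in both knockdowns, by 0.36 and 0.42, and the difference between them was 0.07 (SE 0.08, adjusted p 0.584). ATP6V0E1 was higher in shARNT (0.21, adjusted p 0.00809), a call that a single fit of all 9 libraries did not make (adjusted p 0.134), and was not called in shBMAL1 (0.18, adjusted p 0.223; adjusted p 0.034 without shBMAL1 replicate 3). Between the knockdowns it was called only without shBMAL1 replicate 1 (−0.20, adjusted p 0.0245).

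**Figure D3:**
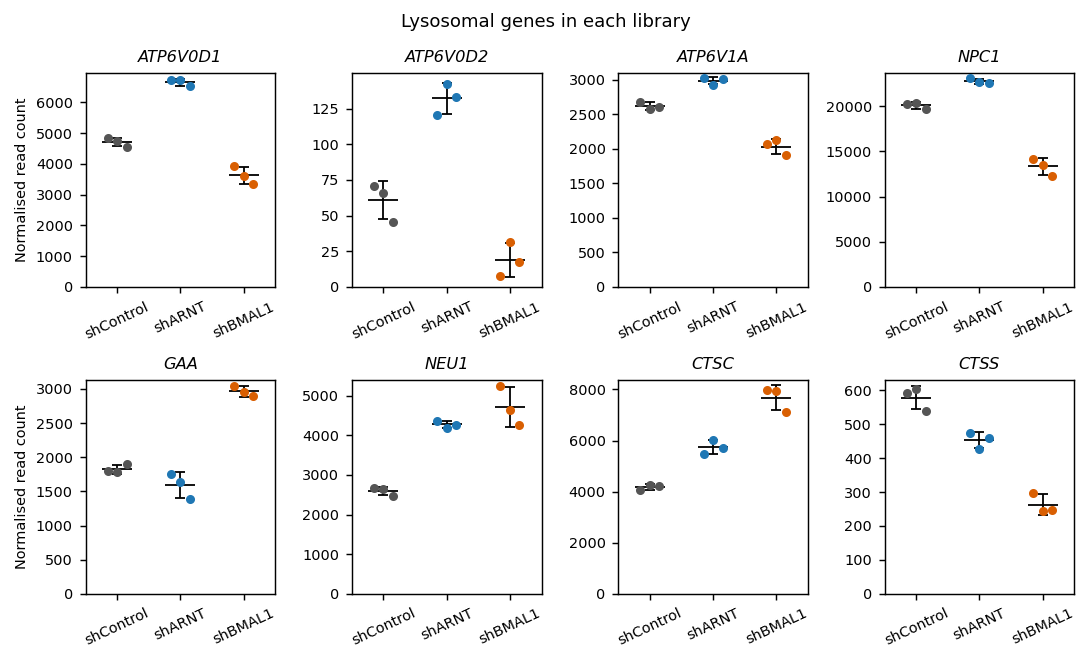
Normalised read counts (y axes, linear, from 0) of 8 lysosomal genes in the 3 libraries of each group; points are libraries and black bars the mean ± SD. ATP6V0D1, ATP6V0D2, ATP6V1A and NPC1 lie above the control in shARNT and below it in shBMAL1, GAA does the reverse, NEU1 and CTSC rise in both knockdowns and CTSS falls in both.

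MCOLN1, the calcium channel of the lysosomal membrane (TRPML1), was higher in shARNT and not in shBMAL1. It had 895, 964 and 1003 counts in shControl, 1206, 1309 and 1174 in shARNT, and 1043, 844 and 835 in shBMAL1. All shARNT libraries lay above all others, and the shBMAL1 libraries spread across the control range. MCOLN1 differed from the control by 0.37 (SE 0.08, adjusted p 7.04e-05) in shARNT and by −0.07 (SE 0.11, adjusted p 0.666) in shBMAL1, with −0.44 (SE 0.10, adjusted p 0.000121) between the knockdowns.

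Glycosidases and sulfatases, which strip sugars and sulfate from glycans, had the highest median of the role groups in shBMAL1. In shARNT 3 of the 7 were higher and 3 lower (median −0.01). In shBMAL1 4 were higher and 1 lower (median 0.58), and 5 were higher in shBMAL1 than in shARNT with none lower. The background of higher calls in these comparisons was 16.5%, 17.4% and 17.3% of all tested genes, and of lower calls 19.0%, 19.4% and 18.0%.

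SGSH, a heparan sulfate sulfatase, had 1040.4, 895 and 921 counts in shControl, 1489.9, 1511 and 1495 in shARNT, and 2011, 1608 and 1635 in shBMAL1. Every knockdown library lay above every control library. SGSH rose by 0.66 in shARNT (SE 0.08, adjusted p 6.06e-15) and by 0.88 in shBMAL1 (SE 0.10, adjusted p 3.44e-16). The difference between the knockdowns (0.22, SE 0.09, adjusted p 0.0519) passed the threshold of 0.1 but was lost without any 1 of the 3 shARNT libraries or without shBMAL1 replicate 1 (adjusted p 0.126 to 0.317).

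NEU1, the lysosomal sialidase, rose in both knockdowns by a like amount, from 2660.4, 2646 and 2474 counts in shControl to 4362, 4195 and 4264 in shARNT and 5255, 4631 and 4251 in shBMAL1. No knockdown library overlapped the control, and the knockdowns overlapped each other. The log2 fold changes were 0.72 (SE 0.06, adjusted p 2.35e-34) and 0.86 (SE 0.08, adjusted p 1.98e-23). Between the knockdowns the value was 0.14 (SE 0.08, adjusted p 0.186), and without shBMAL1 replicate 3 it was called, at 0.21 (adjusted p 0.0337). NEU1 works in a complex with cathepsin A (CTSA), which was higher in shARNT (0.29, adjusted p 2.34e-08) and not called in shBMAL1 (0.14, adjusted p 0.12), although it was called there without shBMAL1 replicate 2 or 3 (adjusted p 0.0819 and 0.0735) and with GC correction (0.18, adjusted p 0.0050). Between the knockdowns CTSA was lower in shBMAL1 (−0.15, adjusted p 0.083), a call that held in only 1 of the 6 fits that left out a library, the one without shBMAL1 replicate 1.

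GAA is the acid α-glucosidase that degrades glycogen. Its counts were 1792, 1779 and 1903 in shControl, 1754, 1639 and 1388 in shARNT, and 3048, 2949.8 and 2896 in shBMAL1. The shBMAL1 libraries stood far above the rest and the shARNT libraries just below the control. GAA rose in shBMAL1 by 0.70 (SE 0.07, adjusted p 3.18e-21) and was higher there than in shARNT by 0.89 (SE 0.09, adjusted p 7.65e-23). Its call as lower in shARNT (−0.19, SE 0.08, adjusted p 0.0693) held in only 1 of the 6 fits that left out a library, the one without shARNT replicate 1, with adjusted p values up to 0.421 in the others, and it was lost with the replicate number as a block (adjusted p 0.13).

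GUSB, a β-glucuronidase, was lowered in both knockdowns, from 10692, 10370.3 and 10802 counts in shControl to 7857, 7875 and 7177 in shARNT and 9849, 9071 and 9240.0 in shBMAL1. The groups did not overlap, and shARNT was lowest. GUSB fell by −0.47 (SE 0.05, adjusted p 2.14e-17) in shARNT and −0.18 (SE 0.06, adjusted p 0.0131) in shBMAL1, and shBMAL1 was higher than shARNT by 0.30 (SE 0.07, adjusted p 5.78e-05). HEXA, a subunit of β-hexosaminidase, rose in both, by 0.22 in shARNT and 0.58 in shBMAL1 (direct comparison 0.37, adjusted p 1.25e-06). MAN2B1, an α-mannosidase, fell in shARNT (−0.22, adjusted p 0.000261) and was higher in shBMAL1 than in shARNT (0.34, adjusted p 1.62e-05). Its value of 0.11 in shBMAL1 was not called (adjusted p 0.195; adjusted p 0.0458 without shBMAL1 replicate 3). GLA, the α-galactosidase that is deficient in Fabry disease, was called in no comparison.

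Of the cathepsins and other peptidases, which degrade proteins in the lysosome, 5 of 10 were higher and 2 lower in shARNT, and 4 were higher and 2 lower in shBMAL1. Of all tested genes 16.5% and 17.4% were higher in these comparisons and 19.0% and 19.4% lower, so that the share lower was near the background. CTSC, which activates serine proteases of granules, rose most. It had 4052, 4269 and 4235 counts in shControl, 5486, 6037 and 5723 in shARNT, and 7960, 7953 and 7112 in shBMAL1. The groups did not overlap and stood in that order. CTSC rose by 0.46 (SE 0.06, adjusted p 9.83e-15) in shARNT and by 0.87 (SE 0.07, adjusted p 3.63e-35) in shBMAL1, with 0.42 (SE 0.07, adjusted p 4.44e-08) between the knockdowns.

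CTSD, an aspartic protease that with CD63 had the highest level of the 39 genes in control cells, rose to the same extent in both knockdowns. Its counts were 81979, 79157 and 76614 in shControl, 105618, 108276 and 107128 in shARNT, and 115289, 98587 and 106029 in shBMAL1. Every knockdown library lay above every control library, and the shBMAL1 libraries bracketed those of shARNT. The log2 fold changes were 0.44 (SE 0.04, adjusted p 3.83e-21) and 0.43 (SE 0.07, adjusted p 5.26e-09), with a difference of −0.01 (SE 0.07, adjusted p 0.963). TPP1, a tripeptidyl peptidase, likewise rose by 0.23 and 0.25.

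CTSS, a cysteine protease best known from antigen-presenting cells, fell most of the 10 peptidases in shBMAL1. It had 591, 603 and 539.8 counts in shControl, 474, 427 and 459 in shARNT, and 298, 244 and 246 in shBMAL1. The groups did not overlap. CTSS fell by −0.35 (SE 0.11, adjusted p 0.00544) in shARNT and by −1.14 (SE 0.13, adjusted p 1.62e-17) in shBMAL1, with −0.79 (SE 0.13, adjusted p 4.05e-08) between the knockdowns.

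CTSK, the collagen-degrading protease of osteoclasts, was the other peptidase that was lower in both knockdowns. It had 154, 112 and 111 counts in shControl, 77.0, 53.0 and 88.5 in shARNT, and 60.6, 61.5 and 76.4 in shBMAL1, so that all knockdown libraries lay below all control libraries. CTSK fell by −0.79 (SE 0.25, adjusted p 0.00787) in shARNT and −0.93 (SE 0.24, adjusted p 0.000767) in shBMAL1. Without control replicate 1, its highest library, the call in shARNT was lost (−0.61, adjusted p 0.124). CTSK (chr1:150767356-150782053, minus strand, GRCh37) lies 136 bases downstream of ARNT (chr1:150782189-150849184, minus strand), the gene that shARNT targets, and CTSS (chr1:150702555-150738433, minus strand) is the member next to it on the other side. The part of this position in the 2 results was not tested.

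The remaining peptidases changed little. CTSL was higher in shARNT (0.20, adjusted p 0.0225), a call lost without control replicate 1 or 3 or shARNT replicate 2 (adjusted p 0.112, 0.194 and 0.141), and was not called in shBMAL1 (0.13, adjusted p 0.246; adjusted p 0.0385 without control replicate 2). CTSH was higher in shBMAL1 (0.29, adjusted p 0.0223), a call lost without control replicate 1 or 2 (adjusted p 0.157 and 0.111). CTSB was called in no comparison. CTSZ was not called in any either, at −0.01, −0.14 and −0.12, but without shBMAL1 replicate 3 it was called lower in shBMAL1 against shControl and against shARNT (adjusted p 0.0271 and 0.0387). A single fit of all 9 libraries also called it lower in shBMAL1 than in shControl (adjusted p 0.077). CTSZ overlaps NELFCD, GLA overlaps RPL36A, CTSA overlaps PLTP and NEURL2, SGSH overlaps CARD14 and SLC26A11, and SCARB2 overlaps FAM47E, all on the opposite strand. HEXA and CTSD overlap protein-coding entries without a gene name on their own strand, over 35058 and 11203 bases. CTSA, HEXA and SGSH had fractional values in all 9 libraries. The part of these overlaps in the counts was not tested.

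Among genes of lipid handling, all 6 were called in shARNT, 4 higher and 2 lower, and in shBMAL1 2 were higher and 2 lower. At a mean of at least 500 the background was 21.0% higher and 25.1% lower in shARNT, and 19.2% and 32.9% in shBMAL1. PSAP, the precursor of the saposins that present sphingolipids to their hydrolases, had 42414, 44057 and 43232 counts in shControl, 66769, 62083 and 57473 in shARNT, and 66265, 58657 and 64880 in shBMAL1. The knockdown libraries overlapped each other and stood well above the control. The log2 fold change was 0.53 (SE 0.06, adjusted p 1.06e-19) in shARNT and 0.55 (SE 0.06, adjusted p 1.90e-16) in shBMAL1. ASAH1, the acid ceramidase, rose in both, by 0.44 and 0.23, less in shBMAL1 than in shARNT (−0.21, adjusted p 0.0192), a call lost without shARNT replicate 2 (adjusted p 0.146). GRN, the precursor of the granulins, rose in shARNT (0.46, adjusted p 3.24e-18), and its level in shBMAL1 was below that in shARNT (−0.33, adjusted p 5.21e-07). In shBMAL1 against the control it was not called (0.12, adjusted p 0.118), but GC correction called it higher (0.17, adjusted p 0.00464), as did the fit that left out shBMAL1 replicate 3 (adjusted p 0.0918).

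NPC1 and NPC2, which pass cholesterol out of the lysosome, did not move together. NPC1, the membrane protein, had 20280.0, 20322 and 19678 counts in shControl, 23103, 22646 and 22589.8 in shARNT, and 14198, 13521 and 12271 in shBMAL1. The groups did not overlap. NPC1 was higher in shARNT by 0.18 (SE 0.04, adjusted p 0.000167), lower in shBMAL1 by −0.59 (SE 0.07, adjusted p 1.60e-17) and lower by −0.77 in shBMAL1 than in shARNT (SE 0.07, adjusted p 2.91e-30). It overlaps RMC1 on the opposite strand. NPC2, the soluble carrier, was lower in shARNT (−0.16, adjusted p 0.0273), a call lost without control replicate 1 or shARNT replicate 1 or 3 (adjusted p 0.121, 0.119 and 0.188) or in a single fit of all 9 libraries (adjusted p 0.1003), and was not called in shBMAL1 (0.09, adjusted p 0.473; adjusted p 0.0477 without shBMAL1 replicate 3). NPC2 was higher in shBMAL1 than in shARNT (0.25, adjusted p 0.0127), a call lost without shARNT replicate 3 or shBMAL1 replicate 2 (adjusted p 0.105 and 0.113). LIPA, the acid lipase, fell in both, by −0.23 (adjusted p 8.24e-05) and −0.27 (adjusted p 0.00417). Its annotation overlaps IFIT1, IFIT2 and IFIT3 on the opposite strand, so its counts are uncertain.

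Of the 4 structural membrane proteins of the lysosome, 1 was called higher in shARNT and 2 in shBMAL1, and none lower, beside a background of 21.0% and 19.2% higher at a mean of at least 500. The first of these shares is near its background. SCARB2, the receptor that carries glucocerebrosidase to the lysosome, had 6899.5, 7104 and 6809 counts in shControl, 7739, 7774 and 7316 in shARNT, and 8169, 8286 and 9004 in shBMAL1. The groups did not overlap. It was higher in shBMAL1 by 0.29 (SE 0.06, adjusted p 5.61e-05). The calls of 0.14 in shARNT (SE 0.05, adjusted p 0.0266) and of 0.16 between the knockdowns (SE 0.07, adjusted p 0.0547) were each lost in 4 of the 6 fits that left out a library, with adjusted p values up to 0.139 and 0.247. In shARNT these were the fits without control replicate 1 or 3 or shARNT replicate 1 or 2, and between the knockdowns those without any 1 of the shARNT libraries or shBMAL1 replicate 3.

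LAMP2, a major glycoprotein of the lysosomal membrane that also serves chaperone-mediated autophagy, had 14086, 13606 and 13275 counts in shControl, 12924, 14063 and 14605 in shARNT, and 15010.0, 15165 and 14539 in shBMAL1. The shBMAL1 libraries lay above the control and the shARNT libraries overlapped both. Its call in shBMAL1 (0.12, SE 0.06, adjusted p 0.0896) held in only 1 of the 6 fits that left out a library, the one without shBMAL1 replicate 3, and was lost in edgeR's quasi-likelihood test (adjusted p 0.11) and with the replicate block (adjusted p 0.152). LAMP1, its paralog, was called in neither knockdown (0.07, adjusted p 0.482; −0.14, adjusted p 0.157) but differed between them (−0.21, adjusted p 0.0083). Leaving out control replicate 3 called it in shARNT (0.14, adjusted p 0.0666), and leaving out control replicate 1 or shBMAL1 replicate 3 called it in shBMAL1 (−0.20 and −0.18, adjusted p 0.0551 and 0.0846). CD63, a tetraspanin of late endosomes, was called in no comparison (0.07, 0.14 and 0.08). With GC correction it was called higher in shARNT (0.12, adjusted p 0.0554) and in shBMAL1 (0.17, adjusted p 0.0283). It was also called in shARNT without control replicate 2 (adjusted p 0.0656), in shBMAL1 without control replicate 2 or shBMAL1 replicate 3 (adjusted p 0.0656 and 0.0277), and between the knockdowns without shBMAL1 replicate 3 (adjusted p 0.0974).

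Gene by gene, 11 of the 38 (28.9%) were called higher in both knockdowns, 5 (13.2%) lower in both, and 5 in opposite directions. Of the 15163 genes tested in both, 7.29% were higher in both, 10.7% lower in both and 3.57% opposite, and of the 8223 with a mean of at least 500, 8.43%, 15.2% and 4.88%. The share lower in both was thus near the background. The 11 were MITF, SCARB2, CTSC, CTSD, TPP1, HEXA, NEU1, SGSH, ASAH1, PSAP and ATP6AP1. The 5 that were lower in both were TFE3, CTSK, CTSS, GUSB and LIPA. NPC1, ATP6V0D1, ATP6V0D2 and ATP6V1A were higher in shARNT and lower in shBMAL1, GAA the reverse, and the direct comparison was called for all 5. The shARNT side of GAA was lost in 5 of the 6 fits that left out a library, as given with its values. Another 11 were called in 1 knockdown and not in the other, and TFEB, LAMP1, CD63, CTSB, CTSZ and GLA in neither. The knockdowns share their control libraries, so a chance value in a control library enters both of its comparisons.

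Genes of 3 wider lists that hold none of the 39 were counted in the same fits. Of 84 further lysosomal genes, 76 were tested in shARNT, with 29 higher and 14 lower, and 80 in shBMAL1, with 29 higher and 17 lower. The shares higher, 38.2% and 36.3%, lay above the background of 16.5% and 17.4% of all tested genes, while the shares lower, 18.4% and 21.3%, were near its 19.0% and 19.4%. Of the V-ATPase subunits outside the set, 7 of 15 tested were higher and 2 lower in shARNT, beside 16.5% and 19.0% of all tested genes. In shBMAL1 1 of 16 was higher and 4 were lower (median −0.035), beside 17.4% and 19.4% of all tested genes and 32.9% lower at a mean of at least 500. The direct comparison had 2 of 15 higher and 8 lower, against 19.9% and 29.9% of genes with a mean of at least 500. Peptidases outside the set had 6 of 10 higher in shBMAL1 than in shARNT and none lower. Glycosidases and sulfatases outside it had 10 of 20 higher there and 2 lower, again beside a background of 19.9% higher.

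ACP5, the tartrate-resistant acid phosphatase of osteoclasts and macrophages, rose most in both knockdowns among genes of that list with a mean of at least 100 counts. Its counts were 158, 144 and 119 in shControl, 502, 534 and 528 in shARNT, and 410.1, 419 and 311 in shBMAL1. No knockdown library came near the control. ACP5 rose by 1.90 (SE 0.14, adjusted p 3.90e-40) in shARNT and 1.44 (SE 0.17, adjusted p 7.60e-16) in shBMAL1. SLC29A3, a lysosomal nucleoside transporter, followed with 0.89 (adjusted p 2.94e-13) and 1.27 (adjusted p 3.00e-25). CD68, a lysosomal glycoprotein used to mark macrophages, was lower in shBMAL1 (−0.31, adjusted p 0.00152) and not called in shARNT (−0.08, adjusted p 0.354).

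OSTM1, the partner of the lysosomal chloride transporter CLCN7, fell most in shBMAL1. It had 2479, 2394 and 2559 counts in shControl, 2849, 3007 and 2909 in shARNT, and 486, 694 and 613 in shBMAL1. The shBMAL1 libraries stood far below all others. Its log2 fold change was −2.05 (SE 0.11, adjusted p 1.73e-80) in shBMAL1 and 0.24 (SE 0.06, adjusted p 0.000436) in shARNT. CTSW, a cathepsin of lymphocytes, fell in both knockdowns, by −1.82 (adjusted p 0.00221) and −1.76 (adjusted p 2.98e-12). ATP6V0A4, the kidney form of pump subunit a, fell by −1.80 in shARNT (adjusted p 9.64e-15) and by −0.62 in shBMAL1 (adjusted p 0.01).

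**Figure D4:**
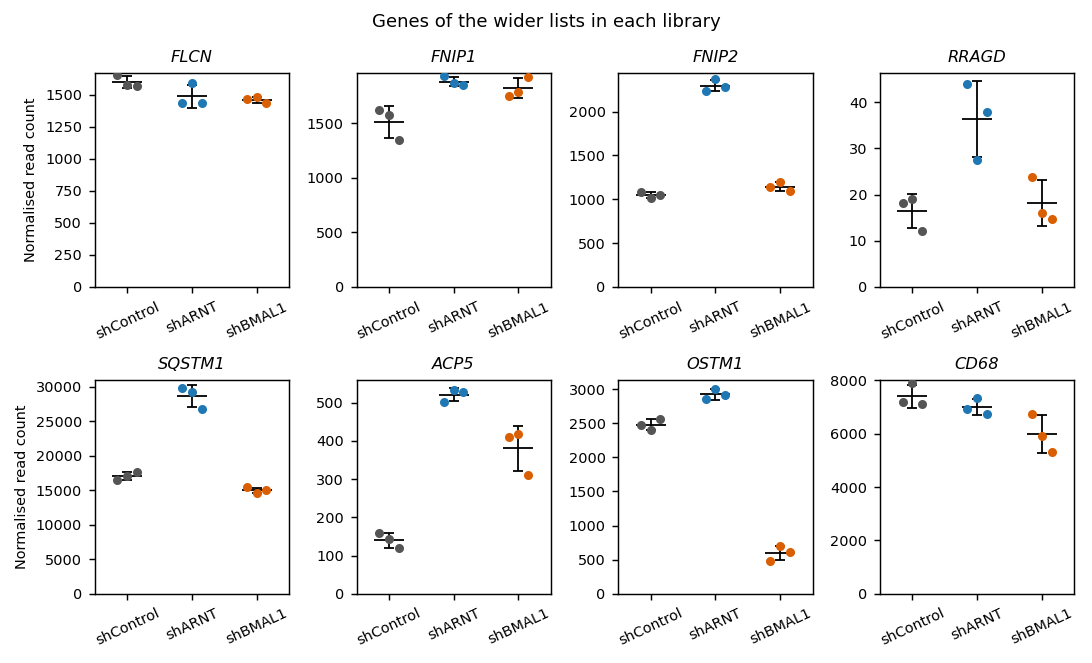
Normalised read counts (y axes, linear, from 0) of 8 genes of the wider lists in the 3 libraries of each group; points are libraries and black bars the mean ± SD. FNIP2, RRAGD and SQSTM1 are high in shARNT alone, ACP5 is high in both knockdowns and OSTM1 is low in shBMAL1 alone.

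In the list of genes that control mTORC1 and the MiT factors, 9 of 24 tested were higher and 3 lower in shARNT, and 6 of 25 higher and 4 lower in shBMAL1. The 37.5% higher in shARNT stood above the background of 16.5% of all tested genes and 21.0% at a mean of at least 500. The 12.5% lower in shARNT was below the matching 19.0% and 25.1%. In shBMAL1 the 24.0% higher compares with 17.4% and 19.2%, and the share lower was below the background of 19.4%. FNIP2, a partner of folliculin, rose most in shARNT among genes of this list with a mean of at least 100 counts. It had 1087, 1017 and 1049 counts in shControl, 2236, 2369 and 2282 in shARNT, and 1144, 1200.3 and 1092 in shBMAL1. The shARNT libraries held more than any other library, and those of shBMAL1 lay just above the control. The log2 fold change was 1.13 (SE 0.07, adjusted p 3.90e-58) in shARNT, 0.12 (SE 0.09, adjusted p 0.308) in shBMAL1 and −1.004 (SE 0.08, adjusted p 1.63e-36) between the knockdowns. RRAGD, a Rag GTPase known as a MiT target, was low, at 18.1, 19.0 and 12.1 counts in shControl, 43.9, 27.5 and 37.8 in shARNT and 23.8, 16.1 and 14.7 in shBMAL1. It was higher in shARNT (1.15, SE 0.44, adjusted p 0.033), and the direct comparison gave −0.999 (SE 0.43, adjusted p 0.0637). FNIP1, the paralog of FNIP2, rose in both knockdowns (0.32 and 0.27, adjusted p 0.000383 and 0.0119), and FLCN, folliculin itself, in neither (−0.10 and −0.13, adjusted p 0.316 and 0.193). TFEC, the fourth MiT family member, had 0 counts in all control libraries and at most 11.1 in any library. It is among the 6 genes of this list called higher in shBMAL1. With 0 in the control, it could be tested only through its counts in shBMAL1. Its levels are too near the limit of 3 counts for a fold change, and no rise is read from that call.

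Other genes of this list moved by less. TBC1D7 rose in shARNT (0.43, adjusted p 0.000374), and TSC2 (−0.31, adjusted p 9.04e-07) and PPP3R1 (−0.22, adjusted p 0.0613) fell. TBC1D7 and TSC2 belong to the complex that restrains mTORC1, and PPP3R1 is a subunit of calcineurin, which dephosphorylates TFEB. In shBMAL1 LAMTOR4 and LAMTOR1, of the Ragulator that anchors Rag GTPases, rose by 0.34 each (adjusted p 3.31e-05 and 0.00195). RHEB, the activator of mTORC1, and RPTOR, its substrate-binding subunit, fell by −0.57 (adjusted p 1.22e-09) and −0.38 (adjusted p 2.24e-06).

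Of 48 autophagy genes, 14 of 46 tested were higher and 6 lower in shARNT, while 7 of 47 were higher and 15 lower in shBMAL1. The 31.9% lower in shBMAL1 was near the background of 32.9% at a mean of at least 500 and above the 19.4% of all tested genes. In the same order of backgrounds, the 14.9% higher in shBMAL1 compares with 19.2% and 17.4%. The 30.4% higher in shARNT compares with 21.0% and 16.5%, and the 13.0% lower with 25.1% and 19.0%. The direct comparison had 4 of 47 autophagy genes higher in shBMAL1 than in shARNT and 18 lower (38.3%), beside 17.3% and 18.0% of all tested genes and 19.9% and 29.9% at a mean of at least 500. SQSTM1, the cargo receptor p62, led the rise in shARNT. Its counts were 16506, 17109 and 17642 in shControl, 29809, 29282 and 26825 in shARNT, and 15430.0, 14693 and 14991 in shBMAL1. The shARNT libraries stood high above the rest and the shBMAL1 libraries just below the control. SQSTM1 rose by 0.75 in shARNT (SE 0.05, adjusted p 4.10e-43), fell by −0.19 in shBMAL1 (SE 0.06, adjusted p 0.0066) and differed by −0.93 between the knockdowns (SE 0.06, adjusted p 3.24e-48).

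ATG4A, a protease that processes LC3 family proteins, rose in shARNT (0.52, adjusted p 3.47e-05), and ATG16L1, of the complex that lipidates them, fell (−0.30, adjusted p 0.000145). ULK2, a kinase that starts autophagy, fell in both knockdowns (−0.44 and −0.70, adjusted p 3.01e-05 and 3.90e-10). In shBMAL1, WIPI1, which binds the phosphoinositide of forming autophagosomes, fell by −0.76 (adjusted p 3.96e-20). ATG14, of the complex that makes this lipid, and GABARAP, an LC3 family protein, rose there by 0.70 (adjusted p 3.67e-06) and 0.66 (adjusted p 8.49e-11). The plot of shares called sets the 3 lists beside the members and the background.

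**Figure D5:**
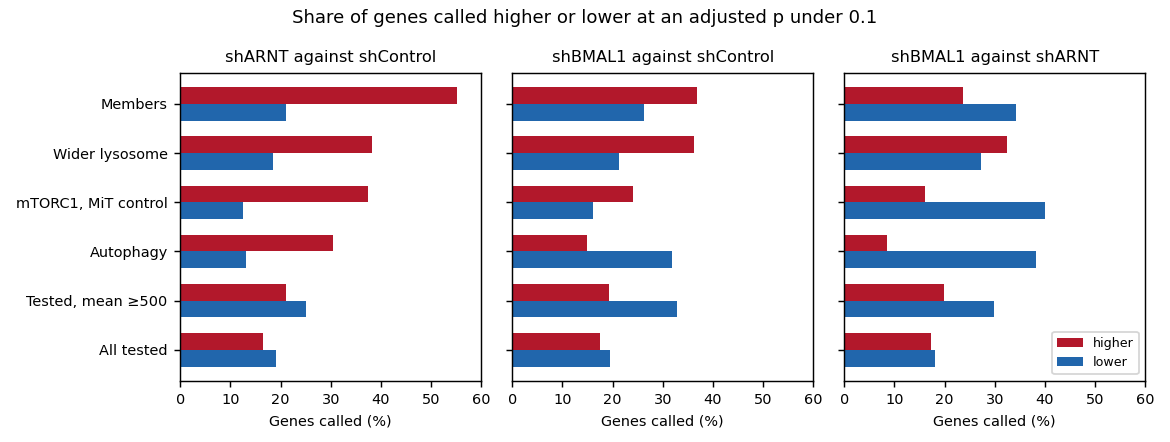
Percent of genes called higher (red) or lower (blue) at an adjusted p under 0.1 (x axis, from 0) in the 3 comparisons, for the 38 members other than GPNMB, the 3 wider lists, all tested genes with a mean of at least 500 counts, and all tested genes. In shARNT the members reach 55.3% higher against 21.0% at a mean of at least 500, and between the knockdowns the autophagy list has 38.3% lower in shBMAL1 against 29.9%.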

How the data were processed

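RNA-seq of 3 shControl, 3 shARNT and 3 shBMAL1 libraries of 786O cells was analysed. The estimated counts per gene were deposited by the authors in 1 table. The study's methods name SeqMan NGen and ArrayStar with GRCh37, whereas the submitters' processing notes name STAR, DESeq2 and hg38, so the route from reads to counts, its annotation and its use of strand are uncertain, and overlapping genes are read with that limit. A value of 0.009 stood for 0 in 46.3% of cells and was set to 0. Of the nonzero values 6.14% were fractional, and all values were rounded. The 53 surplus rows that share a name were summed, which left 38021 genes, and 28 rows with date-like names were not named.

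Each pair of groups was fitted with DESeq2 1.42.0 in R 4.3.3 (Wald test, median-of-ratios size factors, Benjamini-Hochberg adjusted p under 0.1 over all genes that passed independent filtering). Adjusted p values are from these fits unless another is named. Normalised read counts use size factors of all 9 libraries, and levels per length use the transcript lengths of an annotation of GRCh37. Alternatives were edgeR 4.0.16, TMM size factors, a minimum of 10 counts in 3 libraries, 1 fit of all 9 libraries, the replicate number as a block, GC correction, both together, an adjusted p under 0.05, a minimum of 1.5-fold, and each library left out. The procedure was tested on simulated data. Within a group, libraries differed beyond counting noise (chi-square per degree of freedom 7.18 to 16.4), and none was counted as a copy.

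The genes and lists were chosen with earlier results of these data known. By rule, library values were given for GPNMB, the MiT factors and the called genes with the largest and smallest fold change of each role. From each wider list the rule named the 2 most raised and 2 most lowered called genes per knockdown with a mean of at least 100 counts, with FLCN, FNIP1, FNIP2, RRAGD, TFEC, SQSTM1 and CD68 whatever their values. Of these, library values are printed for ACP5, OSTM1, FNIP2, RRAGD and SQSTM1 and fold changes for the others. Library values of NEU1, CTSD, CTSK, GAA, ATP6V0D1 and the genes CSF1R and PMEL were added after values were seen, as was the CATGTG motif.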

Additional observations from a re-analysis of the deposited data

Results flagged for a closer look

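Each of 5 lysosomal genes was called in opposite directions in the knockdowns, with the difference tested directly by DESeq2 between shBMAL1 and shARNT. These were 13.2% of the 38 genes, beside 3.57% of all genes tested in both knockdowns and 4.88% of those with a mean of at least 500. This log2 difference was −2.81 for ATP6V0D2 (adjusted p 1.12e-15), −0.88 for ATP6V0D1 (adjusted p 1.79e-33), −0.77 for NPC1 (adjusted p 2.91e-30) and −0.56 for ATP6V1A (adjusted p 2.73e-13), all lower in shBMAL1 in 3 of 3 libraries. It was 0.89 for GAA (adjusted p 7.65e-23), higher in shBMAL1 in 3 of 3 libraries. The shARNT side of GAA (−0.19, adjusted p 0.0693) was lost in 5 of the 6 fits that left out a library, with the replicate block (adjusted p 0.13) and with GC correction (adjusted p 0.214), so its opposite direction is uncertain. The cause was not tested.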

How the results depend on the processing

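Most values kept their direction and their side of the threshold. The calls of single members that a left-out library changed stand with their values above. For the wider lists only the counts, and not the calls of single genes, were followed in this way. Leaving out 1 library at a time gave 19 to 21 of the 38 genes higher and 5 to 7 lower in shARNT, 12 to 20 and 10 to 12 in shBMAL1, and 6 to 10 and 11 to 14 between the knockdowns. The lowest count of lowered genes in shARNT, 5, came without control replicate 1. For the 3 wider lists together these ranges were 44 to 50 and 18 to 23, 36 to 43 and 26 to 36, and 28 to 32 and 39 to 49. With a minimum of 1.5-fold, which by construction can only lower a count, 3 of the 38 genes were higher and 1 lower in shARNT, 5 and 4 in shBMAL1, and 1 and 4 between the knockdowns, and 9 and 2, 13 and 8, and 6 and 13 of the wider lists. The median of the 38 genes in shARNT was 0.183 in edgeR.

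GC correction called CD63 in shARNT, called CD63, CTSA, CTSL, MAN2B1 and GRN higher in shBMAL1, and lost GAA in shARNT and LAMP2 in shBMAL1. A single fit of all 9 libraries lost NPC2 and ATP6V0E1 in shARNT and called CTSZ lower in shBMAL1. That fit, and a minimum of 10 counts, each also called CTSA and GRN in shBMAL1. GC correction with the replicate block lost MITF (adjusted p 0.102) and SCARB2 (adjusted p 0.138) and called LAMP1 (adjusted p 0.0944) in shARNT.

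The signs that turned all belonged to genes not called in that comparison, and the cause was not tested. In shARNT TFEB was −0.00047 in edgeR and −0.006 with TMM size factors. With GC correction LAMP2 was −0.024, CTSB 0.053, CTSZ 0.037 and GLA 0.023 in shARNT, and TPP1 −0.004 and PSAP −0.003 between the knockdowns. With GC correction and the replicate block together these were −0.024, 0.053, 0.036, 0.017, −0.002 and −0.003. With 1 library left out the log2 fold changes in shARNT ran from −0.035 to 0.055 for TFEB, −0.013 to 0.072 for LAMP2, −0.045 to 0.017 for CTSB, −0.042 to 0.016 for CTSZ, −0.104 to 0.047 for GLA, in shBMAL1 from −0.082 to 0.006 for CTSB, and between the knockdowns from −0.055 to 0.011 for CTSB, −0.064 to 0.047 for CTSD, −0.326 to 0.021 for CTSK, −0.053 to 0.058 for TPP1, −0.126 to 0.025 for GLA, −0.122 to 0.032 for LIPA, −0.031 to 0.078 for PSAP, −0.034 to 0.139 for ATP6AP1, −0.198 to 0.086 for ATP6V0E1.

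The replicate numbers did not pair the libraries: same-numbered libraries of different groups had correlations of −0.154 to 0.105 in their deviations from the group means, and not every library correlated best with its own number. With the replicate block 21 of the 38 genes were higher and 7 lower in shARNT, 13 and 10 in shBMAL1, and 9 and 13 between the knockdowns, and 46 and 19, 40 and 29, and 32 and 42 genes of the wider lists. Depth limited the low genes, GPNMB, ATP6V0D2, CTSK, RRAGD and TFEC, whose values rest on few counts per library.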
